A study of Mus musculus with 6 samples.

Results

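Windows of Runx2 occupancy that lay at promoters were taken from chromatin immunoprecipitation sequencing (ChIP-seq) of mouse primary chondrocytes, the cells that make cartilage matrix. A 100 bp window was counted as a promoter window when its centre was within 500 bp of the start of any transcript named in the deposited lists of either condition. By this rule 379 of 2000 windows were promoter windows, 203 of the 1000 listed for normal culture and 176 of the 1000 listed for culture with the inflammatory cytokine interleukin-1β (IL-1β). They occupied 270 distinct sites and stood at 256 genes, with 203 genes in the normal-culture list and 176 in the IL-1β list.

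The cells came from 5-day-old C57BL/6 mice of the Runx2-Biotin-FLAG-tag line, in which the endogenous Runx2 protein carries the tag, so every library of both conditions is from tagged animals. Anti-FLAG M2 recovered the DNA bound by Runx2, and the authors called windows against input DNA of the same condition. There was 1 library per antibody and condition, 6 libraries in all, so no value below has a replicate error and no test compares the conditions. The IgG libraries were not used here. Each window carries a rank, 1 being the first of its list, and no score, read count or depth, so depth is unknown. More peaks were called than the lists show, and not the same number in each condition, so a window absent from 1 list may have been called below its last rank. Ranks of the lists are set side by side as places only, and equal places need not mean equal occupancy.

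Runx2 is a DNA-binding protein of the Runt family that works with the partner CBFβ and is known for driving chondrocyte hypertrophy and bone formation. Runt proteins recognise a short word, TGTGGT or TGCGGT. Promoters are the stretches around transcript starts where RNA polymerase assembles. Many are CpG islands, which hold binding sites of widely expressed factors such as Sp1, the ETS family and CREB, and CpG-island promoters are common at genes that most cells use.

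The label primary chondrocytes could be examined at promoters only, since occupancy gives no expression. Of 12 chondrocyte marker genes, which included Acan, Sox9 and Comp, Col2a1 alone had a promoter window in normal culture, and 0 of 12 had one in IL-1β. None of 6 fibroblast, 6 macrophage and leukocyte, 4 endothelial and 4 skeletal muscle marker genes had a promoter window in either list. Over all annotated protein-coding genes 1.35% had a normal-culture window within 500 bp of a start and 1.06% an IL-1β window. Lists this short would thus mostly hold none, and no reading of cell type or purity is drawn from these counts.

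The windows below were chosen because they carry the results that follow: the Runx word, the ETS word, or neither, at high-ranked promoters and at cartilage genes. All are centred upstream of the listed start and overlap no annotated exon. The sequence is that of the mm9 assembly (NCBIM37), 5′ to 3′ in the direction of the gene, with window starts read as counted from 0 and coordinates as deposited. In the first set capitals mark the Runx word on either strand, so that ACCACA and ACCGCA are TGTGGT and TGCGGT read from the other strand. The windows are Adnp at chr2:168032890-168032990 (minus strand), Pcyt1a at chr16:32430878-32430978 (plus strand), Copg at chr6:87837672-87837772 (plus strand), Lgals2 at chr15:78686223-78686323 (minus strand), Mylk at chr16:34784902-34785002 (plus strand) and Rdm1 at chr11:101489024-101489124 (plus strand). Those of Mylk and Rdm1 are from the IL-1β list and all others printed are from normal culture.
Adnp: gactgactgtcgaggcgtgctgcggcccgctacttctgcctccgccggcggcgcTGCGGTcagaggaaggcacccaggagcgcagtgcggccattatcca
Pcyt1a: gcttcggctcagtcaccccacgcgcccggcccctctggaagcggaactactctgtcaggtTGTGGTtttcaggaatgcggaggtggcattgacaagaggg
Copg: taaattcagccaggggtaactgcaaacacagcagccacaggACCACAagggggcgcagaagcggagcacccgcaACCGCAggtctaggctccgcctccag
Lgals2: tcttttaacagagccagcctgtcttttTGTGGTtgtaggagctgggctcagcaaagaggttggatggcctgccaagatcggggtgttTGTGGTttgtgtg
Mylk: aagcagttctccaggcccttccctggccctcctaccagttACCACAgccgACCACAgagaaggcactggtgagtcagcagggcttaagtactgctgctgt
Rdm1: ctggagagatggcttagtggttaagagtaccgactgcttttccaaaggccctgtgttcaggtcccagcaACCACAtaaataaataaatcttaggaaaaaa

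In the second set capitals mark the ETS word CCGGAA, or TTCCGG on the other strand, and in the windows of Nfxl1 and Dhrs7b the Runx word as well. The windows are Nfxl1 at chr5:72950942-72951042 (minus strand), Dhrs7b at chr11:60644015-60644115 (plus strand), Gabpb1 at chr2:126501342-126501442 (minus strand), Eif3g at chr9:20703065-20703165 (minus strand), Kctd5 at chr17:24210465-24210565 (minus strand) and Utp3 at chr5:88983234-88983334 (plus strand).
Nfxl1: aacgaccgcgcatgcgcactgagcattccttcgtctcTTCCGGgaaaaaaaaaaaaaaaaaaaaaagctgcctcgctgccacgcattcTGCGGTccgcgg
Dhrs7b: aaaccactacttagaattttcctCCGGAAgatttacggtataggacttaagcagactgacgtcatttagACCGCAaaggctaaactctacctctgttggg
Gabpb1: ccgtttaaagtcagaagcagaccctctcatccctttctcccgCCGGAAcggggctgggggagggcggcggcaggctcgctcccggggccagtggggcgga
Eif3g: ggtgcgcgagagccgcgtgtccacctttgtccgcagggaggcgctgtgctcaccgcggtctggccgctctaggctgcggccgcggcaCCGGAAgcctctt
Kctd5: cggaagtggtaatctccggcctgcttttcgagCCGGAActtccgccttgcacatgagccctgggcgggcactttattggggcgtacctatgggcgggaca
Utp3: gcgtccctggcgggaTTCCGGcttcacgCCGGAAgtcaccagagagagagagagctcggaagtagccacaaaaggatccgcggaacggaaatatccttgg

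In the third set no window holds the Runx word or the ETS word. Capitals mark the short form of the CREB site (TGACGT, here ACGTCA) in Calm2, the GC box of Sp factors (GGGCGG) in Col2a1 and Serpinh1, and in Loxl1 a looser Runx word that ends in C (TGTGGC, or GCCACA on the other strand). The windows of Calm3 and Cltc hold none of these words and carry no capitals, though each holds the other looser Runx word (TGCGGC). The windows are Calm2 at chr17:87846360-87846460 (minus strand), Calm3 at chr7:17509480-17509580 (minus strand), Cltc at chr11:86571084-86571184 (minus strand), Col2a1 at chr15:97835195-97835295 (minus strand), Serpinh1 at chr7:106501780-106501880 (minus strand) and Loxl1 at chr9:58161072-58161172 (minus strand).
Calm2: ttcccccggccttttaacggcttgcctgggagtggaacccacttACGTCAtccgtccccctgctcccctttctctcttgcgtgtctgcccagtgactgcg
Calm3: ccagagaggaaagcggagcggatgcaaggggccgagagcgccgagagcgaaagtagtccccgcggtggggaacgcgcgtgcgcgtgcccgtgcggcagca
Cltc: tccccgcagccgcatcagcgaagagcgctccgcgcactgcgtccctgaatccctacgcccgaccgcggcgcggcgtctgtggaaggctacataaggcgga
Col2a1: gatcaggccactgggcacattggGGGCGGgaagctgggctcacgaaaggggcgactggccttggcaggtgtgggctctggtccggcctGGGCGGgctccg
Serpinh1: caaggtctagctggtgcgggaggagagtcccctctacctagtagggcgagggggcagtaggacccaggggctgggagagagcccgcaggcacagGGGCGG
Loxl1: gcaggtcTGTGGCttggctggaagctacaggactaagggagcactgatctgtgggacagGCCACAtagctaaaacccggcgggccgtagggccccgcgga

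The highest-ranked promoter windows included those of Ppp1r11, Adnp, Ube2f, Calm2, Cltc and Eif3g, and were found in both conditions. Of the 10 highest-ranked promoter windows, 10 of 10 were shared, meaning that they overlapped a window of the other condition, in normal culture and 10 of 10 in IL-1β, and 7 genes were among the 10 of both. Among all windows, promoter or not, 55.1% were shared in normal culture and likewise 55.1% in IL-1β, but windows away from promoters in the first 100 ranks were shared at 91.0% and 90.8%, so high-ranked windows of both kinds were mostly shared. Ppp1r11, which encodes an inhibitor of protein phosphatase 1, ranked 6 in normal culture and 2 in IL-1β, with centres 49 and 31 bp downstream of its start. Adnp, a homeobox protein of a chromatin remodelling complex, ranked 3 and 12, with centres at -379 and -373 bp, where a negative distance is upstream of the start. Ube2f, which encodes an enzyme that conjugates NEDD8, ranked 13 and 9. Calm2 ranked 9 and 39, and Cltc, the clathrin heavy chain, ranked 29 and 30. Eif3g, a subunit of translation initiation factor eIF3, ranked 12 and 33.

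Other genes were among the 10 of 1 list only. Gabpb1, the β subunit of the ETS factor GABP, ranked 5 in normal culture and 160 in IL-1β, with centres 64 bp apart. Pcyt1a, the rate-setting enzyme of phosphatidylcholine synthesis, ranked 25 and 280, and Alkbh3, a nucleic acid demethylase, 26 and 61. Jarid1b, now named Kdm5b and encoding a histone H3 lysine demethylase, ranked 60 and 24, and Eif4a2, an RNA helicase of translation initiation, 58 and 46.

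Members of the same gene family recurred, and these were picked out after their values were seen. The calmodulin genes Calm2 and Calm3 had shared promoter windows, that of Calm3 at 229 and 315. Of the Kdm5 demethylases, Jarid1b had a shared window and Jarid1c, now Kdm5c, had a window in each list that did not overlap, at 310 and 599. The highest-ranked window of both lists stood 113 bp from an annotated start at the Kdm5a and Ccdc77 genes, and it is not a member because no transcript of the deposited lists begins there.

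Gene groups were counted over 15 lists of genes, chosen with earlier results of these data known, as genes with a promoter window. The background is the GENCODE M1 annotation of mm9, in which 1.35% of 22372 protein-coding genes had a window of normal culture within 500 bp of a start and 1.06% one of IL-1β. No group had more than 4 genes by the rule, and nothing particular to a group is read from such counts. The rule uses fewer starts than this background, so only shares by annotated starts are of the same measure. In the cartilage and collagen matrix list of 44 genes, 4 had a promoter window under normal conditions and 2 under IL-1β. By annotated starts these were 9.09% and, with Plod3 added, 6.82%. Loxl1, a lysyl oxidase-like enzyme that cross-links elastin and collagen, ranked 267 in normal culture and 377 in IL-1β. Serpinh1, the collagen chaperone Hsp47, ranked 391 and 681. Col2a1, the main collagen of cartilage, ranked 398 in normal culture, at -170 bp from the listed start, and had no promoter window in the IL-1β list. Fn1, fibronectin, ranked 624 in normal culture alone, in a window at -372 bp that lies 204 bp downstream of the annotated start of another gene, Apol7d. None of these windows held the Runx word, as the printed windows of Col2a1, Serpinh1 and Loxl1 show.

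Among 30 chondrocyte and Runx transcription factors, Runx3 had a window in both lists, at rank 679 in normal culture and 546 in IL-1β, within 27 bp of its start. Runx1 had one in IL-1β alone, at rank 392 and 101 bp downstream of the start, with 1 Runx word. Runx2, Sox9, Sox5 and Sox6 had no promoter window by the rule. Of 32 genes that respond to IL-1 or belong to NF-κB signalling, Gadd45b, a stress-induced inhibitor of the cell cycle, had a window in normal culture at rank 625, and 0 had one in the IL-1β list. By annotated starts Nfkb2, the p100 subunit of NF-κB, had a window in both lists. The shares by annotated starts were 3.33% and 6.67% for the transcription factors and 6.25% and 3.12% for the IL-1 and NF-κB genes.

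Of 81 ubiquitin and proteasome genes, 4 had a promoter window in each list, among them Ube2f, Usp2 and Usp48. The deubiquitinase Usp2 ranked 81 and 79. Of 81 chromatin regulators 3 had one in each list, Adnp, Jarid1b and Jarid1c, and annotated starts brought this to 6 in normal culture (7.41%) and 5 in IL-1β (6.17%), with Kdm5a and Kdm3a in both. Of 62 translation factors and tRNA synthetases 3 did in each list, Eif3g, Eif4a2 and Gspt1, the release factor eRF3, which ranked 45 and 308. Among 93 mitochondrial genes, Ndufs7, a subunit of respiratory complex I, ranked 49 and 70, and Cox5a, of cytochrome c oxidase, 409 and 622.

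Rpl18 was the ribosomal protein gene with a window in both lists, at 88 in normal culture and 58 in IL-1β, while Rps12 at 508 and Rpl22 at 542 were in normal culture alone, out of 75. For the vesicle group of 70 genes Copg, the γ subunit of the COPI coat, ranked 47 and 107, and Sar1b, a GTPase of COPII coats, 616 in IL-1β alone. For 45 chaperone and stress genes, Cct7, a subunit of the TRiC chaperonin, was in both lists, Atf4 in normal culture alone at 837 and Atf6 in IL-1β alone at 715. Both encode transcription factors of the unfolded protein and integrated stress responses. None of the 58 genes of the cell cycle and mitosis list and none of 61 histone genes had a promoter window in either list, by the rule or by annotated starts. The 58 do not cover all genes of mitosis. Members outside the list, picked after their values were seen, include 2610036L11Rik, now Cenpw, at 51 in normal culture and 74 in IL-1β. Kif2c at 629 and Nuf2 at 961 in normal culture are others. The study reports cell-cycle terms for its Runx2 peaks near starts in both conditions. It describes that set by distance to a start and not by rank, whereas the lists used here hold 1000 windows each. Over all protein-coding genes 1.35% had a normal-culture window near a start and 1.06% an IL-1β window. At such shares a list of 58 genes can easily hold none. Neither the lack of windows at the 58 genes nor the picked members therefore bear on the study's terms.

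Most promoter windows were centred upstream of the listed start. In normal culture the median centre was at -80.0 bp, with quartiles of -170 and -9.5 bp, and in IL-1β it was at -63.5 bp, with quartiles of -150.8 and 13 bp. Measured from the nearest annotated start, for windows within 500 bp of one, the medians were -38.0 and -30.0 bp. Of the normal-culture windows 75.9% were upstream (95% Wilson interval 69.5 to 81.2%) and 54.2% (47.3 to 60.9%) were 0 to 200 bp upstream. The IL-1β values were 72.7% (65.7 to 78.8%) and 55.7% (48.3 to 62.8%). These intervals, and those below, cover counting error over windows and not the difference between libraries. By annotation the centres lay outside a gene in 104 and 86 windows, in a UTR in 69 and 59, in an intron in 22 and 24 and in a coding exon in 8 and 7. At 12.8% of normal-culture windows (8.89 to 18.1%) and 13.6% of IL-1β windows (9.34 to 19.5%) annotated transcripts began on both strands within 500 bp, against 8.60% of all 45975 annotated protein-coding starts, and the differences were 4.20 percentage points (95% Newcombe interval 0.279 to 9.51) and 5.03 (0.725 to 10.9). The 500 bp were counted from the window centre, mostly upstream, for the windows and from the start itself for the annotated starts. The effect of this shift on the differences was not tested.

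**Figure D1:**
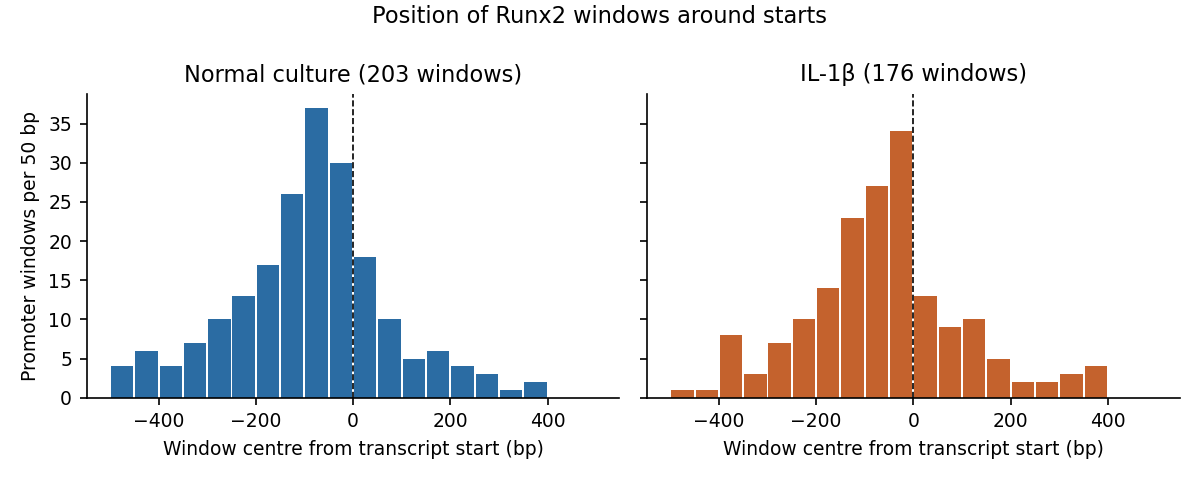
Number of promoter windows per 50 bp (vertical axis) by distance of the window centre from the nearest listed transcript start in bp (horizontal axis, negative is upstream, dashed line at the start), for normal culture (203 windows) and IL-1β (176 windows). Both distributions peak upstream of the start, with medians of -80.0 and -63.5 bp.

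Nearby starts made the gene of some windows uncertain. The nearest annotated start belonged to another gene than the listed one for 14 members of normal culture and 12 of IL-1β, such as Sphk2 beside Rpl18, Nme2 beside Nme1 and Ddx5 beside Ccdc45. The distance limit also divided close neighbours. In normal culture Hmg20b at -495 bp, Usp48 at -485 and EG229862 at -472 were just inside, and Sertad1 at 505 bp, Ppm1a at -516 and Plcl2 at -539 just outside. In IL-1β Dscr3 at -482 bp, Hmg20b at -444 and Gspt1 at -385 were just inside, and 6330577E15Rik at -529, Egr2 at -543 and Lancl2 at 553 just outside.

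Which promoters counted depended on which transcripts the lists named. Of the 203 members of normal culture, 50 were found only through a start that the IL-1β list names, and 40 of those 50 were shared, whereas 1 IL-1β member was found only through the normal-culture list. With all annotated starts 272 normal-culture windows (27.2%, 24.5 to 30.0%) and 211 IL-1β windows (21.1%, 18.7 to 23.7%) were promoter windows. The 70 normal-culture windows so added included 19 shared ones. Under the rule the lists held 20.3% (17.9 to 22.9%) and 17.6% (15.4 to 20.1%) promoter windows. The normal-culture share less the IL-1β share was 2.70 percentage points under the rule, -2.20 points with starts of the own list alone and 6.10 points with annotated starts. With 1 library per condition and a value that depends on the choice of starts, no difference between the conditions is read from these values.

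Promoter windows were spread over all ranks and were most frequent in the first 100. Their median rank was 489 in normal culture (quartiles 202 and 715.5) and 497 in IL-1β (279.8 and 747.5), close to the 502 and 501.5 of other windows. The first 100 ranks held 33 promoter windows in normal culture (95% interval 24.6 to 42.7 per 100) and 24 in IL-1β (16.7 to 33.2), and the next 100 held 17 (10.9 to 25.5) and 10 (5.52 to 17.4). The intervals of these neighbouring bins overlapped in both lists.

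**Figure D2:**
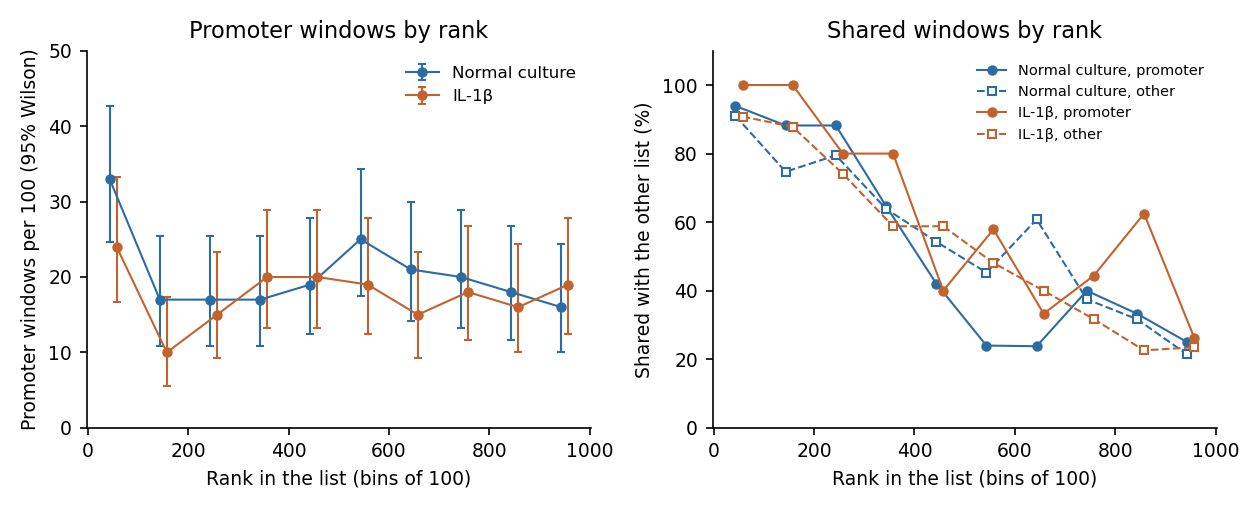
Left, promoter windows per 100 ranks with 95% Wilson intervals (vertical axis) by rank in the list (horizontal axis), for normal culture and IL-1β. Right, percent of windows shared with the other list per 100 ranks for promoter windows (filled circles) and other windows (open squares). Promoter windows are most frequent in the first 100 ranks, 33 and 24, and the shared percent is higher in each of the first 3 bins than in any bin past rank 400, for promoter and other windows.

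How promoter windows compared with other windows in sharing depended on which starts were used, with an overlap of at least 1 bp counted as shared. The rule itself takes in shared windows, since 40 of the 50 normal-culture members that only the IL-1β list's starts brought in were shared. Among promoter windows of normal culture 109 of 203 were shared (53.7%, 46.8 to 60.4%) against 55.5% of other windows, a difference of -1.76 percentage points (-9.43 to 5.81). Among those of IL-1β 109 of 176 were shared (61.9%, 54.6 to 68.8%) against 53.6%, a difference of 8.29 points (0.196 to 15.9). With starts of the own list the normal-culture difference was -11.8 points (-20.2 to -3.22), and with annotated starts -11.6 points (-18.4 to -4.60). The IL-1β difference had an interval that included 0 in 5 of 8 other settings, such as 6.45 points (-1.11 to 13.7) with annotated starts and 1.97 (-6.04 to 10.1) at 50 bp of overlap. Shared members ranked higher than the rest, with median ranks of 249 against 627 in normal culture and 360 against 671 in IL-1β.

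At gene level, 123 genes had a promoter window in both lists, 80 in normal culture alone and 53 in IL-1β alone. By window 109 of 203 and 109 of 176 members were shared, beside 55.1% of all windows in each list. For 14 of the 123 the windows of the lists did not overlap although they stood at the same start. Nfxl1, a zinc finger gene, ranked 54 in normal culture at -109 bp and 939 in IL-1β at 57 bp. Slc35a1, a transporter of CMP-sialic acid, ranked 105 at -22 bp and 488 at 100 bp. Fancc, of the Fanconi anaemia repair pathway, ranked 402 at 113 bp and 304 at -34 bp. Zcchc6, an RNA uridylyltransferase, ranked 576 at -51 bp and 299 at 191 bp, and D0H4S114 513 at 60 bp and 291 at -83 bp. An overlap count therefore treats these promoters as differing between conditions although both lists hold a window there.

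Of promoters that stood in 1 list with no window of the other at the same start, the highest in normal culture was Bcl9l, a cofactor of β-catenin, at rank 100 and -280 bp with 1 Runx word. In IL-1β it was Clic4, a chloride intracellular channel protein, at rank 294 and -14 bp, followed by the dehydrogenase gene Dhrs9 at 303. The best rank of a promoter window not shared was thus 54 in normal culture and 291 in IL-1β.

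At the 109 shared promoter sites the centres differed by a median of 23 bp (quartiles 11 and 44) and at most by 94 bp. Across sites the ranks in the lists had a Spearman correlation of 0.682 (109 sites, within 2 libraries), and 0.589 over 442 other shared windows. Both numbers describe sites of the same pair of libraries. The place was nearer the top in the normal-culture list at 70 promoter sites and in the IL-1β list at 39, while at other shared windows these numbers were 200 and 241 of 442. The median of the rank in IL-1β less that in normal culture was 45 at promoters and -18 elsewhere.

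The shared sites placed furthest lower in the IL-1β list than in the normal-culture list were Sirt6, a sirtuin deacylase (174 to 880), Hbxip, a subunit of the Ragulator complex (193 to 838), Nme1, a nucleoside diphosphate kinase (360 to 989), Alg12, a mannosyltransferase (288 to 878) and Sh3gl1, an endophilin (349 to 931). Those placed furthest higher were at Rdm1, a RAD52 motif gene (689 to 73), Adipor1, an adiponectin receptor (857 to 247), Zfand5 (816 to 287), Dap3, a mitochondrial ribosomal protein (869 to 402) and 1110001A07Rik (728 to 279). These sites were chosen by their difference in place, and no replicate says how far a place moves without a change of condition. The Rdm1 windows held few CpG, 1 in IL-1β and 0 in normal culture, and both were centred in an annotated intron. Whether they lie in a repeat whose copies differ in sequence was not searched.

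**Figure D3:**
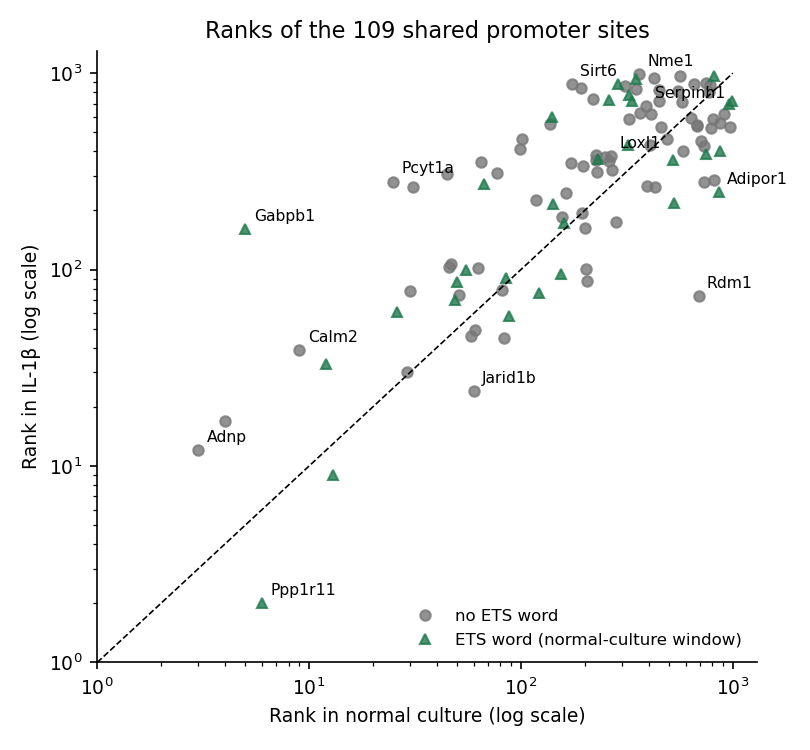
Rank in normal culture (horizontal, log scale) against rank in IL-1β (vertical, log scale) for the 109 shared promoter sites, with triangles for sites whose normal-culture window holds the ETS word and circles for the rest, and a dashed line of equal rank. More sites lie above the line (70, nearer the top in normal culture) than below it (39), and Rdm1, Gabpb1 and Pcyt1a lie far from it.

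Promoter windows were rich in CpG. Their median GC content was 65% in both lists, against 51% and 50.5% in other windows and 59% in 100 bp around all annotated starts. The median CpG content relative to that of a random order of the same bases was 0.919 in normal culture and 0.901 in IL-1β, against 0.255 and 0.277 in other windows and 0.617 at all annotated starts. A window was called CpG-rich at a ratio of at least 0.6 with at least 50% GC. By that definition 82.3% (76.4 to 86.9%) and 81.2% (74.8 to 86.3%) of promoter windows were CpG-rich and 15.7% and 13.7% of other windows. Col2a1 at 0.513, Loxl1 at 0.520, Serpinh1 at 0.370 and Runx3 at 0.406 in normal culture were below the limit, whereas Adnp at 0.924 and Cltc at 1.27 were above it. Windows of exact multi-copy sequence were rare. They were 0 of 203 and 1 of 176 members, against 14 of 797 and 26 of 824 other windows. Only exact copies of 32 bp words were counted, so repeats whose copies differ in sequence were not searched.

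Fewer promoter windows than other windows held the Runx word, and more than annotated starts in general did. The word TGTGGT or TGCGGT was found on either strand in 63.3% of all normal-culture windows and 59.4% of all IL-1β windows. At promoters it was in 96 of 203 (47.3%, 40.5 to 54.1%) and 78 of 176 (44.3%, 37.2 to 51.7%), against 67.4% and 62.6% of other windows. The differences were -20.1 percentage points (-27.5 to -12.5) and -18.3 (-26.1 to -10.2). In 100 bp around all annotated starts the word was in 7.79%, below the promoter windows by 39.5 points (32.7 to 46.4) and 36.5 (29.4 to 43.9), and 1000 bp to either side of the promoter windows in 9.85% and 9.66%. Windows with at least 2 Runx words were 5.42% (3.05 to 9.44%) and 3.98% (1.94 to 7.98%) of promoter windows and 17.1% and 13.5% of other windows. Neither Runx word contains, or is contained in, any other word searched.

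The form of the Runx word differed between promoters and other windows. TGTGGT was in 19.2% of promoter windows of normal culture (14.4 to 25.2%) and in 55.2% of other windows, a difference of -36.0 percentage points (-41.9 to -29.1). TGCGGT, which holds a CpG, was in 30.5% (24.6 to 37.2%) against 16.7%, a difference of 13.9 points (7.32 to 20.9). In IL-1β TGTGGT was in 18.2% against 50.8% (-32.7 points, -38.7 to -25.5) and TGCGGT in 27.3% against 124 of 824 (12.2 points, 5.65 to 19.6). At all annotated starts the order was the reverse, TGTGGT in 5.02% and TGCGGT in 2.86%. The printed window of Adnp holds TGCGGT, that of Pcyt1a TGTGGT and that of Copg both.

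Base composition moved with the form of the word, and its part in the difference was not tested beyond the values that follow. Windows that were CpG-rich and away from every start, listed or annotated, numbered 72 in normal culture and 90 after IL-1β. Of them 47.2% (36.1 to 58.6%) and 34.4% (25.4 to 44.7%) held TGCGGT and 22.2% and 21.1% TGTGGT. Among CpG-rich promoter windows TGCGGT was in 29.9% and 28.0%, and TGTGGT in 30 of 167 and 26 of 143. Other windows that were not CpG-rich held TGTGGT in 62.6% and 56.1% and TGCGGT in 12.2% and 12.1%. Either Runx word was in 46.1% of CpG-rich promoter windows of normal culture and in 62.5% of CpG-rich windows away from starts, a difference of -16.4 percentage points (-29.1 to -2.59), and in IL-1β this was -9.69 points (-22.4 to 3.43), an interval that includes 0.

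Among the promoter windows with several Runx words, Copg, Ndufs7 and Rpl18 held 2 in both lists, Lgals2, a galectin, 2 in normal culture, and Mylk, myosin light chain kinase, 2 in IL-1β at rank 574. Over all promoter windows 47.7% of 193 Runx words lay within 20 bp of the window centre (40.7 to 54.7%), and 53.4% of 1337 in other windows.

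The ETS word CCGGAA was more frequent at these promoters than in other windows and than at annotated starts. It was in 7.60% of all normal-culture windows and 5.80% of all IL-1β windows. At promoters it was in 48 of 203 (23.6%, 18.3 to 29.9%) and 34 of 176 (19.3%, 14.2 to 25.8%), against 3.51% and 2.91% of other windows, which gives differences of 20.1 points (14.6 to 26.5) and 16.4 (11.1 to 22.9). All annotated starts held it in 8.91%, below the promoter windows by 14.7 points (9.41 to 21.0) and 10.4 (5.25 to 16.9). The ETS word holds a CpG, and annotated starts were less rich in CpG than the promoter windows. No starts matched for CpG content were compared, so the part of composition in this difference was not tested. In promoter windows that were not CpG-rich the ETS word was in 2 of 36 and 3 of 33. Among CpG-rich windows it was in 27.5% at promoters and 4.17% away from starts in normal culture, and in 21.7% and 7.78% in IL-1β, with differences of 23.4 points (13.7 to 31.1) and 13.9 (4.38 to 22.3). By rank it was in 12 of 33 promoter windows of the first 100 in normal culture, then 8 of 34 up to rank 300, 9 of 61 up to 600 and 19 of 75 after that. In IL-1β these counts were 8 of 24, 2 of 25, 10 of 59 and 14 of 68.

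The ETS share did not differ beyond its interval between promoter windows with and without a Runx word. In normal culture 21.9% of promoter windows with a Runx word and 25.2% of those without one held the ETS word, a difference of 3.36 points (-8.42 to 14.8), and in IL-1β the values were 14.1% and 23.5%, a difference of 9.37 (-2.54 to 20.5). Nfxl1, Dhrs7b, a reductase gene, Ube2f and Rpl18 held both in normal culture. Gabpb1, Ppp1r11, Eif3g and Alkbh3 held the ETS word and no Runx word in their normal-culture windows, and Utp3, a nucleolar protein of ribosome assembly, held 2 ETS words. Of the 10 highest-ranked promoter windows 3 held the Runx word in each list, and 5 in normal culture and 1 in IL-1β the ETS word.

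Small shifts of a window moved words in and out. Ppp1r11 lost its ETS word between windows 18 bp apart, and Gabpb1 between windows 64 bp apart. Of the 109 shared sites 40 held the Runx word in both windows, 10 in the normal-culture window only, 9 in the IL-1β window only and 50 in neither. For the ETS word these numbers were 21, 10, 4 and 74. Neither word was in 39.4% (32.9 to 46.3%) of normal-culture and 42.6% (75 of 176) of IL-1β promoter windows, such as those of Calm2, Calm3, Cltc and Col2a1.

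**Figure D4:**
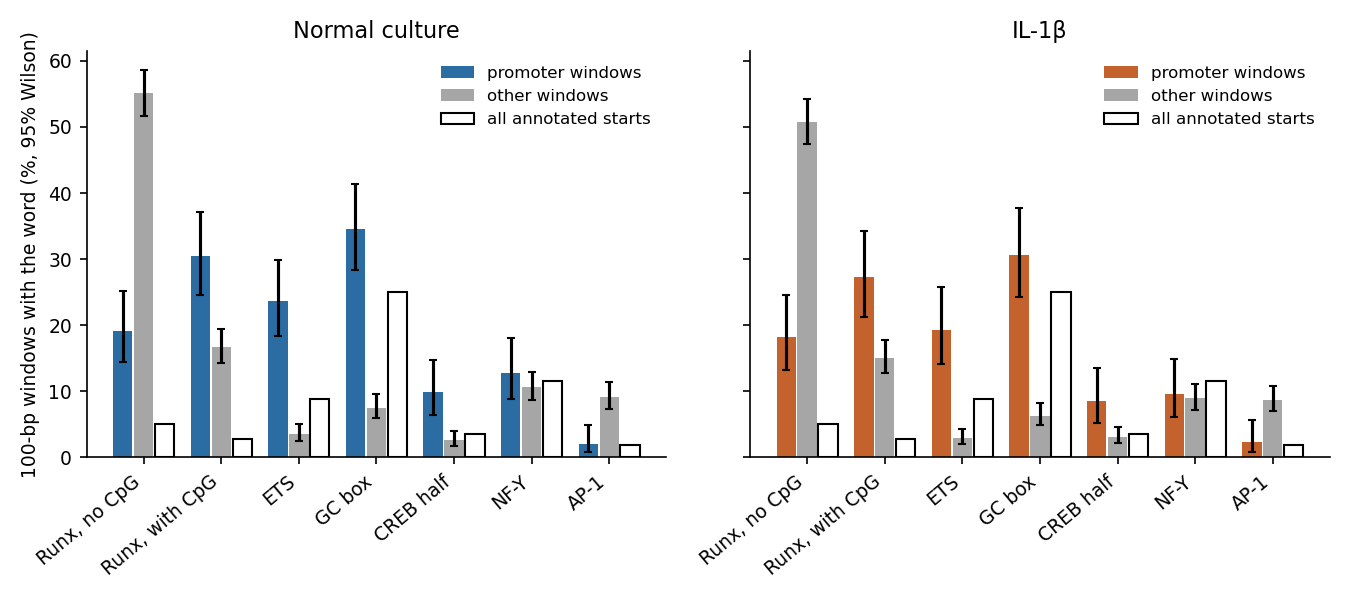
Percent of 100 bp windows that hold each word on either strand (vertical axis) in promoter windows (coloured), other windows of the same list (grey) and all 45975 annotated starts (white), for normal culture and IL-1β, with 95% Wilson intervals for promoter and other windows. Runx words are split into the form without CpG (19.2 and 18.2% at promoters) and the form with CpG (30.5 and 27.3%), and the ETS word stands at 23.6 and 19.3%.

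The GC box GGGCGG was in 34.5% and 30.7% of promoter windows, and in 7.53% and 6.31% of other windows. Windows of all annotated starts placed at the median position of the promoter windows held it in 29.3%, which lies within the intervals of both shares (28.3 to 41.3% and 24.3 to 37.8%). The short CREB word TGACGT was in 9.85% and 8.52%, against 2.63% and 3.16% of other windows and 3.50% of annotated starts, with differences from annotated starts of 6.35 points (2.96 to 11.2) and 5.02 (1.73 to 10.1). The GC box and TGACGT hold a CpG as well, and their starts were likewise not matched for CpG content. The full site TGACGTCA, which contains the short word on both strands, was in 4.43% and 3.98%. Rpl18 held 2 copies of TGACGT in both lists. The NF-Y word CCAAT was in 12.8% and 9.66%, within 3 points of other windows. In 100 bp around all annotated starts it was in 11.6%, with differences of 1.25 points (-2.67 to 6.56) and -1.90 (-5.45 to 3.38). Windows at -69 bp from the annotated starts held it in 18.4%, more than the promoter windows, again without a match in position.

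AP-1 words (TGANTCA) went the other way, in 1.97% and 2.27% of promoter windows against 9.16% and 8.74% of other windows, with differences of -7.19 points (-9.70 to -3.70) and -6.47 (-9.00 to -2.62), and 1.89% of annotated starts held one. The NF-κB word GGGANTTTC was in 0 of 203 and 0 of 176 promoter windows, which allows shares of up to 1.86% and 2.14% (Wilson), and in 8 and 7 other windows. Sox words (ACAAAG or ACAATG) were in 2.96% and 5.68% of promoter windows and in 8.16% and 8.74% of other windows. A match of letters is a description of the sequence and was not tested as a binding site.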

How the data were processed

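ChIP-seq windows of 2 anti-FLAG libraries, 1 per condition, were analysed. Per the submitters' processing notes and the study's methods, the authors aligned reads to mm9 with Bowtie2 2.2.2 (as named in those notes) and called peaks with CisGenome against input of the same condition. The 2 deposited lists hold, per window, a rank and mm9 coordinates with 1 transcript, as other values without a score. Transcripts on chromosome code 20 were read as X (10 windows).

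Starts of the transcripts of both lists were pooled (1352 starts). The distance limit of 500 bp was tried at 250 and 1000 bp. Windows were shared at an overlap of 1 bp. Annotated starts are those of GENCODE M1 protein-coding transcripts. Gene names were matched through RefSeq (925 of 927 listed genes). Words were searched with pysam 0.24.0, and windows were called multi-copy from the genome copies of their 32 bp words (numba 0.67.0). Wilson and Newcombe intervals used statsmodels 0.14.6. The computations were tested on simulated data.

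Genes named were the 10 highest-ranked members per list, the 5 highest-ranked not shared, up to 4 per gene list, the 5 with most Runx words, the 3 just inside and outside the limit, the 5 largest rank changes each way and the study's loci. Genes found only by annotated starts, families and printed windows were picked after their values were seen. Some genes that this rule takes are not reported here. Members and lists were chosen with earlier results of these data known. The computations used Python 3.11.15, numpy 2.4.6 and pandas 2.3.3.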

Additional observations from a re-analysis of the deposited data

How the results depend on the processing

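Summary results numbered 31 and were recomputed under 12 settings, which gave 129 values beside the reported ones. Of these 102 kept their side of the threshold or moved little, 19 moved, 3 had an interval that came to exclude 0 and 5 one that came to include it. No value whose interval excluded 0 changed sign. Among those whose interval included 0, the difference between lists went from 2.70 to -2.20 points with starts of the own list, and the normal-culture shared difference from -1.76 to 0.386 points within 250 bp and to 0.625 with centres within 200 bp. With annotated starts (GENCODE M1) the promoter percent was 27.2% under normal conditions and 21.1% under IL-1β, the difference between lists 6.10 points, the median position -38.0 and -30.0 bp, the shared percent of normal culture 46.7%, and the shared difference from other windows -11.6 points for normal culture and 6.45 for IL-1β. With starts of the own list the normal-culture promoter percent was 15.3%, its shared percent 45.1% and its shared difference -11.8, and the IL-1β shared difference was 8.02. Limits of 250 and 1000 bp gave promoter percents of 16.6 and 23.0% for normal culture, 14.7 and 21.1% for IL-1β, by construction, and at 1000 bp the IL-1β shared difference was 4.05. With the 500 highest-ranked windows the median rank of normal-culture promoter windows was 40.6% down the list, against 48.9%, and the IL-1β shared difference was 9.36 over fewer windows. At least 50 bp of overlap gave shared percents of 41.4 and 47.7% and an IL-1β difference of 1.97. The looser Runx word was in 65.0% and 64.2% of promoter windows and the strict word in 64.0% and 59.7% of 200 bp around the centre, where 11 of 15 other words differed between promoter and other windows of normal culture, against 7 in 100 bp. The cause of these changes was not tested except where the construction of the setting gives it. The difference of the IL-1β list from its other windows in shared percent did not hold in 5 settings, where its interval included 0. The lower Runx percent at promoters than in other windows held in every setting tried for it.

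No paired analysis was possible because each condition has 1 library. Leaving out a replicate was not possible for the same reason. Depth, which the lists do not give, limits what a missing window says.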

Other observations

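The word AAAAAAAA, on either strand, was in 6.40% of promoter windows of normal culture (3.78 to 10.6%) and 2.84% of IL-1β (1.22 to 6.48%), against 4.02% and 3.28% of other windows and 1.53% of annotated starts. In normal culture the difference from annotated starts was 4.87 points (2.24 to 9.11), and in IL-1β 1.31 (-0.318 to 4.95). The printed window of Nfxl1 holds such a run beside its ETS and Runx words. The TATA word TATAAA was in 0.493% and 1.14% of promoter windows against 3.93% of annotated starts, a difference of -3.44 points (-3.89 to -1.19) and -2.80 (-3.64 to 0.118).

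Windows near an annotated start that the rule did not take included, beside the first window of both lists, that of Nfkb2 at rank 21 in normal culture and 118 in IL-1β, at -430 bp. In IL-1β Rchy1, a ubiquitin ligase gene, ranked 20 at 320 bp downstream and Lmna, which encodes lamin A and C, 31 at -349 bp. The normal-culture window of Nfkb2 and the IL-1β windows of Rchy1 and Lmna each held 1 Runx word. These windows were picked by rank among those outside the rule.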
